A study of Mus musculus with 24 samples.

Results

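Rag1 and Rag2, the genes for the paired subunits of the V(D)J recombinase, were taken by symbol from the 38321 gene IDs of the deposited count tables, in which each is 1 ID. They were followed over 24 poly(A) RNA-seq libraries from female wild type C57BL/6J mice, 11 weeks old when the experiments began. Sham mice had sham surgery and vehicle, OVX mice bilateral ovariectomy and vehicle, and OVXE2 mice ovariectomy and 1 µg of estradiol benzoate per day under the skin in corn oil. Surgery was on day 0, injections started on day 4, and every mouse, Sham included, had its upper second molars tied with silk on both sides from day 7 until it was killed on day 14. There was no group without a ligature. Gingiva and the dentoalveolar complex (DAC), freed of soft tissue and taken with its teeth, were each sequenced as 4 libraries for every group. The labels call these biological replicates without naming animals, so p-values measure the spread between these libraries.

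RAG1 and RAG2 together cut DNA at recombination signals beside the V, D and J segments of antigen receptor genes, and the ends are then joined by the general repair machinery of the cell. RAG1 carries the catalytic site, and RAG2 is its required partner, which also binds a histone mark of active chromatin. Both genes are switched on in developing lymphocytes, that is pro-B and pre-B cells of the bone marrow and immature T cells of the thymus, and are silenced in mature cells. Alveolar bone holds marrow, whereas gingiva is a mucosa.

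The genes lie tail to tail on mouse chromosome 2 (build GRCm38, GENCODE M21 annotation). Rag2 (ENSMUSG00000032864) is at chr2:101624718-101632529 on the plus strand. Rag1 (ENSMUSG00000061311) is at chr2:101638282-101649501 on the minus strand, and 5752 bases separate the 3′ ends. The exons cover 6608 bases in Rag1 and 3424 in Rag2, and the coding sequence of each lies in its last exon. The coding parts are 3120 bases, at chr2:101641676-101644795 in exon 2 of Rag1, and 1581 bases, at chr2:101629347-101630927 in exon 3 of Rag2-201. Another gene, B230118H07Rik, runs across both on the minus strand and shares the first exon of Rag1, so reads there are ambiguous. It also has an exon of 208 bases opposite the last exon of Rag2, and in the DAC only 398 of 511 Rag2 counts remained when strand was ignored, against 2928 for 2856 of Rag1. The counts used here keep the strands apart.

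The promoter windows of both genes are shown because the transcripts fell together, and because transcription factors that bind E-boxes or Myb sites are among the genes followed below. Both come from RefSeq (GRCm38.p6), with 250 bases before the start site and 50 after it, read 5′ to 3′ along the gene's own strand. Capitals mark 6-letter E-box matches (CANNTG) and, in Rag2 alone, 5-letter matches of a Myb core (AACNG, read here on the opposite strand). The window of Rag1 is chr2:101649483-101649782 and that of Rag2 is chr2:101624462-101624761.
Rag1: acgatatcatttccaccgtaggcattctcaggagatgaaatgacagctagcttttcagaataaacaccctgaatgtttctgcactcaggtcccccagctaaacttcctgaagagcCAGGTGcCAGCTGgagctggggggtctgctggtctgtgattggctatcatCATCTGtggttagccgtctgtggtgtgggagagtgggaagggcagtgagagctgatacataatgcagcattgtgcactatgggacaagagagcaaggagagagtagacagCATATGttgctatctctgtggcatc
Rag2: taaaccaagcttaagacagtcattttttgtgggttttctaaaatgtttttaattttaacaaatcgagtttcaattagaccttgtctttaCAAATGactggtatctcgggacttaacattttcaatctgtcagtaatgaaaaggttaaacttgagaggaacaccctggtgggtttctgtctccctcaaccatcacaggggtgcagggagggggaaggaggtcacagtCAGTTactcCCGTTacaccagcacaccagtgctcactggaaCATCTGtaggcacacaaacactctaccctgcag

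Rag1 had 4 E-box matches, which began at positions -135, -128, -85 and 26 relative to the start site, which is position 1. Rag2 had 2, at -161 and 18, and its Myb core matches began at -24 and -15. Such short motifs are frequent: over both strands, 72.3% of 32851 promoter windows of this length held an E-box and 80.3% a Myb core. Rag1 also had a CCAAT box (37.4% of windows) and a TGGGAA core of Ikaros (25.6%), neither of which was in the Rag2 window. Rag2 had 1 estrogen response half-site, AGGTCA, which 16.3% of windows held. The full palindromic estrogen response element, GTAAACA of the Foxo factors, CTTTG of Lef1 and the Tcf factors, and TATAAA were in neither window. No matches of different motifs overlapped. These are matches of letters and say nothing of binding. The RefSeq start of Rag1, base 101649532, is also the first base of 3 B230118H07Rik transcripts in GENCODE M21, so that window belongs to both genes.

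The total gene count of a library was 14771830 to 29248358 for the DAC and 18598422 to 26001342 for gingiva. Bone and tooth genes (6 of 6 listed) took 5.93 to 8.62% of DAC counts and 0.183 to 0.58% of gingival counts, and Krt13 and Krt14, the listed 2 of 5 oral epithelium genes, took 6.59 to 8.9% of gingival and 0.0837 to 0.546% of DAC counts. Several DAC libraries stood apart. Nasal and salivary gland genes took 13.9% of counts in OVX 1, against at most 2.49% in the other 11. Sham 2 was the shallowest. Brain neuron genes (8 of 9 listed) were highest in Sham 2, Sham 4, OVX 1 and OVXE2 2, at 0.0164 to 0.0488%. Sham 4, OVX 1, OVX 2 and OVXE2 4 had 3.38 to 3.69% of their gene reads antisense to the annotated gene, against 5.69 to 8.81% in the other 8 DAC libraries. Results below are also given without these libraries, a choice made after seeing the data.

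In the DAC, the transcripts of both genes were highest in OVX, intermediate in Sham and lowest in OVXE2, and no library of 1 group reached into another. Rag1 was 11.1-fold and Rag2 12.7-fold lower in OVXE2 than in OVX. These levels are in CPM, the gene's count relative to the size of its library, with library sizes adjusted within the tissue by the trimmed mean of M values (TMM).

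Rag1 stood at 9.74, 9.30, 7.77 and 4.46 CPM in Sham libraries 1 to 4, from 95 to 241 counts. In OVX libraries 1 to 4 it stood at 30.1, 17.4, 15.98 and 15.1 CPM, from 391 to 754 counts. In OVXE2 libraries 1 to 4 it stood at 1.51, 2.16, 0.585 and 2.74 CPM, from 13 to 78 counts. The lowest OVX library was thus above every Sham library, and the highest OVXE2 library below every Sham library. OVX 1 was far above the other OVX libraries, and OVXE2 3 was the lowest of all. Means were 7.82 ± 2.39 in Sham, 19.6 ± 7.04 in OVX and 1.75 ± 0.923 in OVXE2 (SD, n = 4 each).

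Rag2 stood at 2.18, 1.28, 1.89 and 1.60 CPM in Sham libraries 1 to 4, from 20 to 54 counts. In OVX libraries 1 to 4 it stood at 3.55, 3.44, 3.11 and 2.93 CPM, from 76 to 89 counts. In OVXE2 libraries 1 to 4 it stood at 0.387, 0.298, 0.180 and 0.140 CPM, from only 4 to 11 counts, so counting error alone is large there. The groups did not overlap, and the OVX libraries lay close together, with OVX 1 level with the others. Means were 1.74 ± 0.387 in Sham, 3.26 ± 0.291 in OVX and 0.251 ± 0.112 in OVXE2 (SD, n = 4 each).

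**Figure D1:**
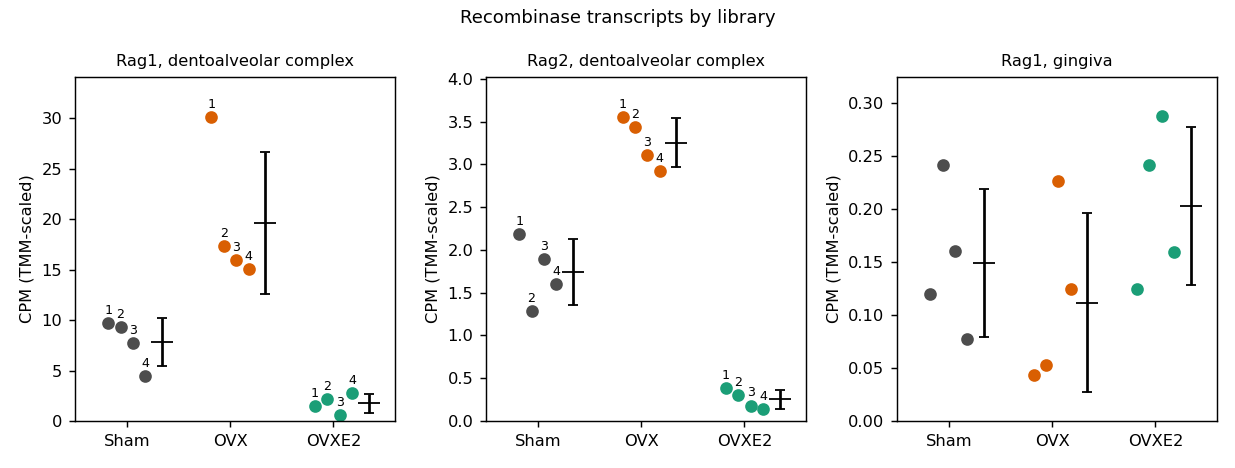
Rag1 and Rag2 in the DAC and Rag1 in gingiva, in TMM-scaled CPM (vertical axes, each with its own range), by group; points are libraries, numbered by replicate in the DAC, and black bars are the mean and SD of 4 libraries. In the DAC the 3 groups do not overlap for either gene, and in gingiva all 12 Rag1 values lie below 0.3 CPM with overlapping groups.

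The comparison of OVXE2 with OVX asks what estradiol replacement changed after ovariectomy. Rag1 was lower by a log2 difference of -3.48 ± 0.43 (SE; 95% interval -4.43 to -2.53) and Rag2 by -3.66 ± 0.32 (-4.36 to -2.97), with Benjamini-Hochberg adjusted p of 0.00167 and 0.000142 in edgeR's quasi-likelihood test over 13617 genes. Both genes passed at an adjusted p under 0.05, where 2.13% of all genes tested were called and 1.45% were called as lower. For 3.51% of all genes, the 4 OVXE2 values lay below the 4 OVX values, as they did for both of these. Among the 198 genes called lower, Rag2 had the second largest fall and Rag1 the third, after Slc12a3, a sodium chloride cotransporter. Both calls held in all 21 alternatives, with log2 differences of -3.77 to -3.19 for Rag1 and -3.95 to -3.35 for Rag2. Without OVX 1 and Sham 2 the differences were -3.19 (adjusted p = 0.00752) and -3.62 (adjusted p = 0.000887). In the 8 libraries with the higher antisense share they were -3.44 (adjusted p = 0.0334) and -3.35 (adjusted p = 0.0279). In the 4 libraries of lower share, where OVXE2 and Sham had 1 library each, Rag1 stood at 4.46 CPM in Sham 4, 30.1 and 17.4 in OVX 1 and 2, and 2.74 in OVXE2 4, the same order. Without the 4 libraries richest in neuron counts they were -3.30 (adjusted p = 0.0208) and -3.70 (adjusted p = 0.00715). In bulk tissue, fewer cells that transcribe the genes and less RNA per cell cannot be told apart.

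The comparison of OVX with Sham asks what ovariectomy changed. Rag1 differed by 1.33 ± 0.40 (95% interval 0.46 to 2.20) and Rag2 by 0.90 ± 0.28 (0.29 to 1.505) on the log2 scale, higher in OVX in 4 of 4 libraries against each Sham library. Neither passed edgeR's quasi-likelihood test over 13617 genes: the adjusted p was 0.874 for both, from unadjusted values of 0.00611 and 0.00742. No gene (0%) did so by edgeR, although 437 (3.21%) had an unadjusted p under 0.05, and DESeq2 called 10 genes, neither Rag1 nor Rag2 among them (adjusted p = 0.348 and 0.298). For 1.66% of all genes, the 4 OVX values lay above the 4 Sham values, as they did for these 2. The adjusted p ran from 0.348 to 1 for Rag1 and from 0.298 to 1 for Rag2 over the alternatives. The difference fell to 0.80 for Rag1 and 0.75 for Rag2 in the 8 libraries with the higher antisense share, and to 0.88 and 0.63 without the 4 libraries richest in neuron counts.

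Between OVXE2 and Sham, Rag2 was lower by -2.76 ± 0.31 (95% interval -3.45 to -2.08; adjusted p = 0.00149, edgeR) and Rag1 by -2.15 ± 0.42 (-3.06 to -1.23; adjusted p = 0.0352). Here 1.05% of genes were called and 0.661% were called as lower, and for 2.78% the 4 OVXE2 values lay below the 4 Sham values, as they did for both of these. Among the 90 genes called lower, Rag2 had the second largest fall and Rag1 the ninth. The Rag1 call was the weaker of the pair: leaving out any one of Sham 1, Sham 2, Sham 3, OVX 2, OVX 3, OVX 4, OVXE2 1 or OVXE2 2 raised its adjusted p to between 0.0549 and 0.122, and it was 0.0788 with the replicate number as a block. It was 0.0742 without OVX 1 and Sham 2, 0.0715 in the 8 libraries with the higher antisense share and 0.137 without the 4 libraries richest in neuron counts. The Rag2 call held without each library in turn, and was lost only in those 8 libraries (adjusted p = 0.0580). These 3 comparisons share their libraries in pairs and are not independent of one another.

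Per length of exon, Rag1 was the more abundant transcript in each DAC library. Its level was 1.18 ± 0.362 CPM per kb in Sham, 2.97 ± 1.06 in OVX and 0.265 ± 0.140 in OVXE2, against 0.508 ± 0.113, 0.951 ± 0.0848 and 0.0734 ± 0.0328 for Rag2 (SD, n = 4 each). The ratio of Rag1 to Rag2 per length was 2.31, 3.76, 2.13 and 1.45 in Sham libraries 1 to 4. It was 4.39, 2.62, 2.67 and 2.67 in OVX libraries 1 to 4, and 2.03, 3.76, 1.68 and 10.1 in OVXE2 libraries 1 to 4. The groups overlapped, and the highest ratio, in OVXE2 4, rests on 4 Rag2 counts. On the log2 scale of counts (pseudocount 0.5) the ratio differed by 0.07 between OVXE2 and OVX, by 0.41 between OVX and Sham and by 0.49 between OVXE2 and Sham. None of the 3 differences passed an exact two-sided permutation test over 70 relabellings (p = 0.943, 0.286 and 0.571; adjusted p = 0.943, 0.857 and 0.857), in which the smallest possible p is 0.0286. Leaving out OVXE2 4 turned the sign of both differences that involve OVXE2, to -0.43 against OVX and -0.02 against Sham.

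**Figure D2:**
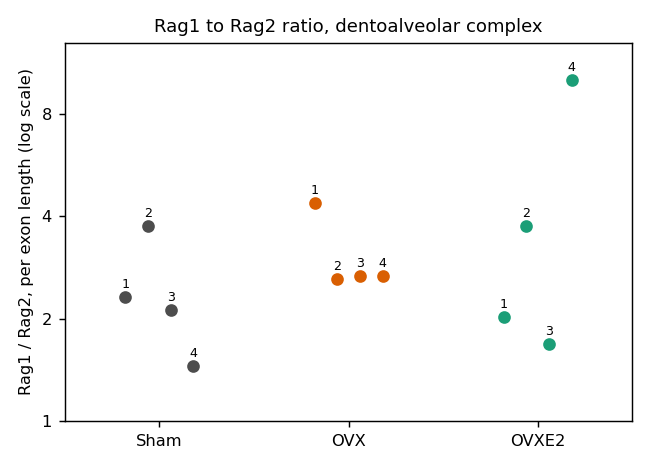
Ratio of Rag1 to Rag2 counts per exon length in each DAC library (vertical axis, log scale), by group, with points numbered by replicate. The 12 ratios lie between 1.45 and 10.1, all above 1, and the groups overlap.

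Within 250 kb of Rag1 or Rag2, 4 further genes were tested and none was called in any of the 3 DAC comparisons. Over all genes, 2.13% were called between OVXE2 and OVX, 0% between OVX and Sham and 1.05% between OVXE2 and Sham. None of 4 is near those shares. Between OVXE2 and OVX, B230118H07Rik, which overlaps both recombinase genes, differed by -0.02 ± 0.16 (adjusted p = 0.999, edgeR). Traf6, an adaptor of innate immune receptors, differed by -0.05 ± 0.14 (adjusted p = 0.989). Prr5l and Commd9 differed by 0.18 ± 0.08 (adjusted p = 0.440) and 0.23 ± 0.29 (adjusted p = 0.967). Gm20693 and Gm13905 had at most 0 and 1 counts in a library and were not tested.

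RAG1 and RAG2 work with general proteins that bend, process and rejoin DNA. Of 16 genes on that list, 11 were listed in the tables and tested, and 1 fell between OVXE2 and OVX, against 1.45% of all genes. That gene was Hmgb2, a DNA-bending protein that is also abundant in dividing cells, at -0.79 ± 0.09 (adjusted p = 0.00135, edgeR). The list's median was -0.05, against 0.02 over all genes tested. Hmgb1, the other bending partner, differed by -0.05 ± 0.06 (adjusted p = 0.960). Dclre1c, the Artemis nuclease that opens the hairpin ends, differed by -0.23 ± 0.15 (adjusted p = 0.771), and DNA ligase Lig4 by -0.25 ± 0.15 (adjusted p = 0.700). Against Sham, 1 of the 11 fell, where 0.661% of all genes fell. It was again Hmgb2 (-0.59 ± 0.09, adjusted p = 0.0120), with a list median of -0.02. None of the 11 passed between OVX and Sham, where edgeR called 0% of all genes, and the list's median was 0.05.

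Of 23 transcription factors known from the control of the Rag locus, 19 were tested. Between OVXE2 and OVX, 8 fell, none rose and 11 did not pass, with a median of -0.73, where 1.45% of all genes fell and their median was 0.02. Spib, an Ets factor of B cells, fell by 2.53 ± 0.19 (adjusted p = 6.04e-05, edgeR). Pax5, which commits cells to the B lineage, fell by 2.98 ± 0.29 (adjusted p = 0.000289). Myb, a factor of blood progenitors, fell by 2.19 ± 0.24 (adjusted p = 0.000666). Smaller falls were found for Ikzf1, which encodes Ikaros, at -1.37, Ikzf3, its relative Aiolos, at -2.07, Bach2 at -1.40, Irf8 at -0.81 and Lef1 at -0.75, with adjusted p of 0.00271 to 0.0246.

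Other factors of the locus did not pass. Foxo1, a direct activator of both genes, differed by -0.05 ± 0.08 (adjusted p = 0.975, edgeR). Tcf3, the E-box factor E2A, differed by -0.16 ± 0.11 (adjusted p = 0.812), and Ebf1, an early B cell factor, by -0.36 ± 0.12 (adjusted p = 0.254). Against Sham, 3 of 19 factors fell in OVXE2, where 0.661% of all genes fell, with a list median of -0.37. They were Pax5 (-2.05, adjusted p = 0.00635), Spib (-1.61, adjusted p = 0.00210) and Myb (-1.58, adjusted p = 0.00921). Between OVX and Sham none of the 19 passed, where edgeR called 0% of all genes, and the median was 0.25 against -0.01 over all genes. Called or not, 18 were higher in OVX and 1 lower, where 52.3% of all genes were lower. An unadjusted edgeR p under 0.05 was found for 8, against 3.21% of all genes. For 5 of the 19 the 4 OVX values lay above the 4 Sham values, against 1.66% of all genes.

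**Figure D3:**
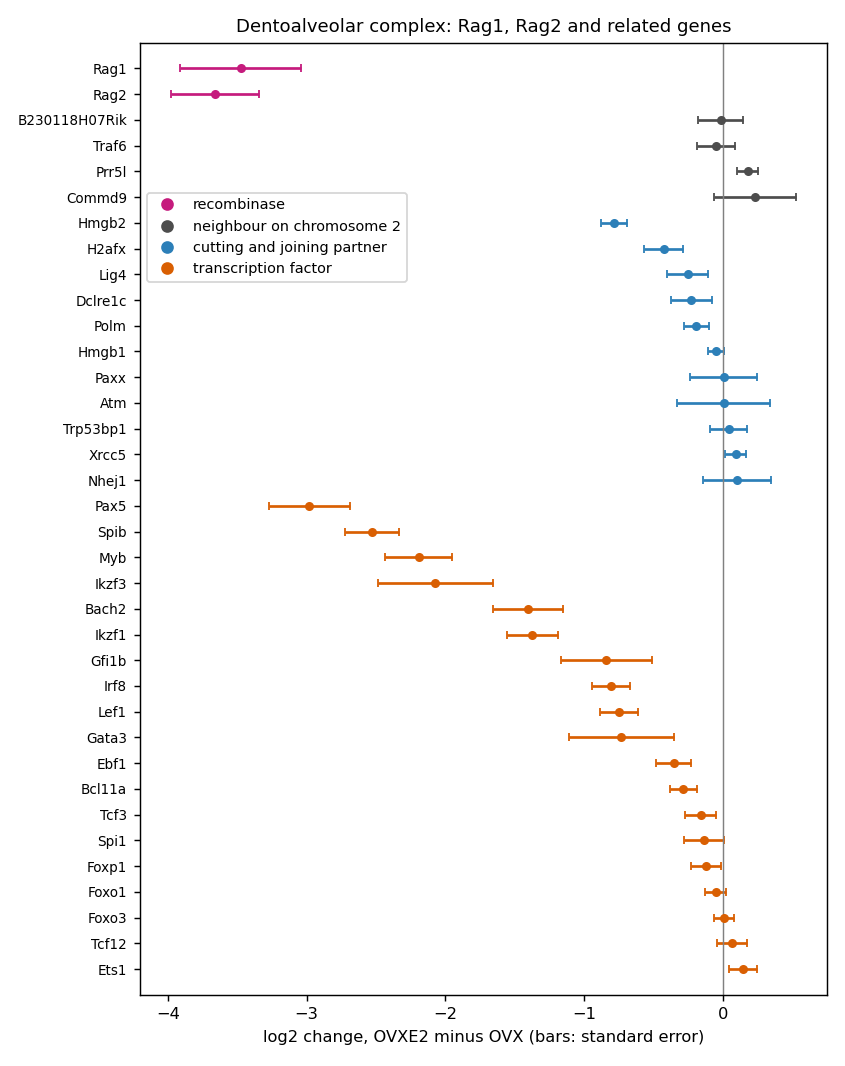
Log2 change between OVXE2 and OVX in the DAC (horizontal axis; points are edgeR estimates from 4 libraries a group, bars the standard error) for Rag1, Rag2, their tested neighbours on chromosome 2, the 11 cutting and joining partners and the 19 transcription factors. Rag1 (-3.48) and Rag2 (-3.66) lie left of every other gene drawn, neighbours lie between -0.05 and 0.23, and Pax5 is the nearest factor at -2.98.

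The recombinase is used in developing lymphocytes, and marker genes of such cells were followed too. Of 15 pro-B and pre-B cell genes, 10 were tested and 5 fell between OVXE2 and OVX, against 1.45% of all genes. The list's median was -0.62, and 4 of the 10 were higher, including Enpep (0.42, adjusted p = 0.0508, edgeR) and Myl10 (0.73, adjusted p = 0.506). Among those that fell were Vpreb3 (-3.10), the receptor chains Cd79a (-2.70) and Cd79b (-2.41), and Akap12 (-0.81). Vpreb3, Cd79a and Cd79b are made in B-lineage cells, and Akap12 is a scaffold protein also made in many stromal cells. Against Sham, 5 fell, against 0.661% of all genes, with Vpreb3, Cd79a, Cd79b and Akap12 among them, and Enpep, a peptidase also made by vessels and epithelia, rose by 0.56 (adjusted p = 0.0224, edgeR). Arpp21 (0.17, adjusted p = 0.997) and Cd93 (0.33, adjusted p = 0.267) did not pass between OVXE2 and OVX. The share of counts of the whole list overlapped between the groups, at 0.0364 to 0.0481% in OVXE2 and 0.0447 to 0.0544% in OVX. Cd93, the most abundant gene of the list, weighed most in that sum, with means of 259 CPM in OVXE2 and 206 in OVX. Cd79a had means of 6.15 and 40.2 CPM, and Vpreb3 of 2.44 and 20.9. The summed share therefore says little about the less abundant genes of the list.

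A list for mature B and plasma cells had 6 tested members, and 2 fell between OVXE2 and OVX, against 1.45% of all genes. They were Cd22 (-1.20, adjusted p = 0.0357, edgeR) and Cd37 (-0.82, adjusted p = 0.00649). Fcer2a (-1.56, adjusted p = 0.293) and Cr2 (-1.38, adjusted p = 0.684) were lower without passing, and Jchain (0.28, adjusted p = 0.980) did not pass either. Called or not, 4 of the 6 were lower and 2 higher, and the list's median was -1.01. Of 11 thymocyte and T cell genes 1 fell, against 1.45% of all genes. It was the kinase Lck (-1.59, adjusted p = 0.0198), while Cd8b1 (-1.88, adjusted p = 0.0851) and Cd3e (-1.02, adjusted p = 0.602) did not pass. Called or not, 10 of the 11 T cell genes were lower, as were 44.9% of all genes tested, and the list's median was -1.03. The summed T cell genes took 0.00807 to 0.00987% of counts in OVXE2 and 0.00976 to 0.0133% in OVX. Tcf7, with means of 48.3 CPM in OVXE2 and 51.2 in OVX, and Cd4, with 18.6 and 18.2, weighed most in that sum. It therefore says little about the less abundant T cell genes. Of 5 marrow stromal genes none passed, where 2.13% of all genes were called, and 3 were lower and 2 higher. Vcam1 changed most, by -0.41 ± 0.12 (adjusted p = 0.165, edgeR). Cxcl12, a chemokine that holds B precursors in marrow, differed by -0.18 ± 0.13 (adjusted p = 0.826), and Il7, their growth factor, by 0.13 ± 0.19 (adjusted p = 0.977). Gland genes, 11 tested, were all lower in OVXE2 than in OVX, where 44.9% of all genes were lower, with a median of -1.27. None passed the test, and for none did the 4 OVXE2 values all lie below the 4 OVX values. Gland shares were 0.404 to 0.866% in OVXE2, 0.228 to 13.9% in OVX and 0.429 to 2.49% in Sham, and their part in the Rag1 and Rag2 differences was not tested beyond the values without OVX 1 given above. Of 3 tested estrogen genes 1 rose and 1 fell, where 0.676% of all genes were called higher and 1.45% lower. Pgr, the progesterone receptor and a known estrogen target, rose by 2.37 ± 0.45 (adjusted p = 0.0183), and Esr1 fell by 0.56 ± 0.12 (adjusted p = 0.0445).

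Set against genes of the B lineage in the same library, the recombinase levels depended on the genes used. Against the mean log2 level of the 10 pro-B and pre-B genes tested, of which 5 fell and 4 were higher in OVXE2 than in OVX, the groups did not overlap. Rag1 stood there at -2.16 to -1.31 in Sham, -0.89 to 0.17 in OVX and -4.25 to -2.20 in OVXE2, and Rag2 at -4.12 to -3.43, -3.23 to -2.81 and -5.86 to -4.86. Against Vpreb3 or Cd79a alone, which were among the genes that fell most, the levels of OVXE2 overlapped those of both other groups. The log2 level of Rag1 minus that of Vpreb3 was -0.88 ± 0.43 in Sham, -0.12 ± 0.67 in OVX and -0.64 ± 0.90 in OVXE2 (SD, n = 4 each). For Rag2 the same difference was -2.97 ± 0.16, -2.63 ± 0.33 and -2.97 ± 0.64. These log2 levels carry a prior count of 2, which lifts low values. Rag2 in OVXE2 rests on 4 to 11 counts, so its differences there are drawn upward, and the equal means of Sham and OVXE2 depend on that. Against Cd79a, Rag1 stood at -1.61 ± 0.39, -1.04 ± 0.72 and -1.94 ± 0.77, and Rag2 at -3.69 ± 0.25, -3.55 ± 0.47 and -4.28 ± 0.61, its lowest mean being in OVXE2. These are descriptions of levels per library, with no test.

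The 8 genes whose log2 CPM followed the mean of standardised Rag1 and Rag2 most closely over the 12 DAC libraries had Pearson r of 0.970 to 0.987. They were Pax5 (0.987), Pou2af1 (0.981), Dpp4 (0.980), Myb (0.976), Spib (0.975), Siglecg (0.973), Cecr2 (0.972) and Lrmp (0.970). These points share their libraries and the separation of the groups, so r describes the order of libraries and carries no p. Pax5 stood at 9.34 to 16.9 CPM in Sham, 20.8 to 32.1 in OVX and 1.85 to 4.32 in OVXE2, and OVX 1 was its highest library, as for Rag1. All 8 were called lower between OVXE2 and OVX, as 1.45% of all genes were, with log2 differences of -2.98 to -1.62. They were chosen for following Rag1 and Rag2 in these same libraries, so their fall is part of that choice. None was called between OVX and Sham, where edgeR called no gene at all.

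In gingiva the recombinase genes were at the limit of detection. Rag2 had 0 counts in all 12 libraries, which allows at most 0.0305 to 0.0340 CPM in a group at 3 counts over its 4 libraries. Rag1 had 3, 6, 3 and 2 counts in Sham libraries 1 to 4, 1, 1, 5 and 3 in OVX, and 3, 6, 7 and 4 in OVXE2. The groups overlapped, and means were 0.149 ± 0.070, 0.112 ± 0.084 and 0.203 ± 0.075 CPM (SD, n = 4 each). Both genes were removed by the filter on low counts. Exact two-sided permutation tests of Rag1 CPM gave p = 0.143 for OVXE2 against OVX, 0.457 for OVX against Sham and 0.286 for OVXE2 against Sham (adjusted p = 0.429, 0.457 and 0.429). The ratio of pooled Rag1 counts between OVXE2 and OVX was 1.79, with a 95% interval of 0.800 to 4.29 that covers counting error only. No gene of 12680 (0%) was called by edgeR in gingiva in any of the 3 comparisons. At an unadjusted p under 0.05 there were 1766, 1530 and 939 genes for OVXE2 against OVX, OVX against Sham and OVXE2 against Sham, and DESeq2 called 91, 44 and 8.

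Between the tissues, scaled together, the edgeR estimate for Rag1 was higher in the DAC by log2 5.52 ± 0.50 in Sham, 7.26 ± 0.53 in OVX and 2.98 ± 0.47 in OVXE2. Rag1 had failed the filter in gingiva and passed the joint filter on low counts only through the DAC, where it is high, so these differences are descriptions that rest on 1 to 7 gingival counts per library. Most genes differed between these tissues: 75.1%, 72.4% and 72.1% were called, and 39.7%, 38.1% and 38.0% were called as higher in the DAC. Rag2 was at least 49.3-fold higher in the DAC in Sham, at least 87.8-fold in OVX and at least 7.62-fold in OVXE2, against a floor of 3 counts over the 4 gingival libraries. For the estradiol effect on Rag1, the edgeR estimate of DAC minus gingiva was -4.28 ± 0.76 on the log2 scale (adjusted p = 0.0150). In that contrast 27 genes, or 0.190%, were called. The Rag1 estimate has the same limit, since its gingival arm lies at the limit of detection and the gene entered the fit through the DAC only. It is therefore a description too, and its p is not read as support for a tissue difference. Leaving out gingival OVXE2 3, which had 7 Rag1 counts, gave -4.07 with an adjusted p of 0.0706. For Rag2 this contrast is left out, since gingiva was at 0 counts and its value cannot be read.

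Some gingival libraries held B-lineage transcripts with few or no recombinase counts. Gingival OVX 3 had 194 counts of Cd79a (8.77 CPM), with 5 counts of Rag1 and 0 of Rag2. Its Cd79a level exceeded that of each DAC OVXE2 library, the highest of which was 7.37 CPM, while those libraries held 13 to 78 Rag1 counts. Vpreb3 had 7 counts in gingival OVX 3 and 13 in gingival OVXE2 1, the highest of the 12, against 56 to 78 in the DAC OVXE2 libraries. CPM were scaled within each tissue here, so levels across tissues are approximate.

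**Figure D4:**
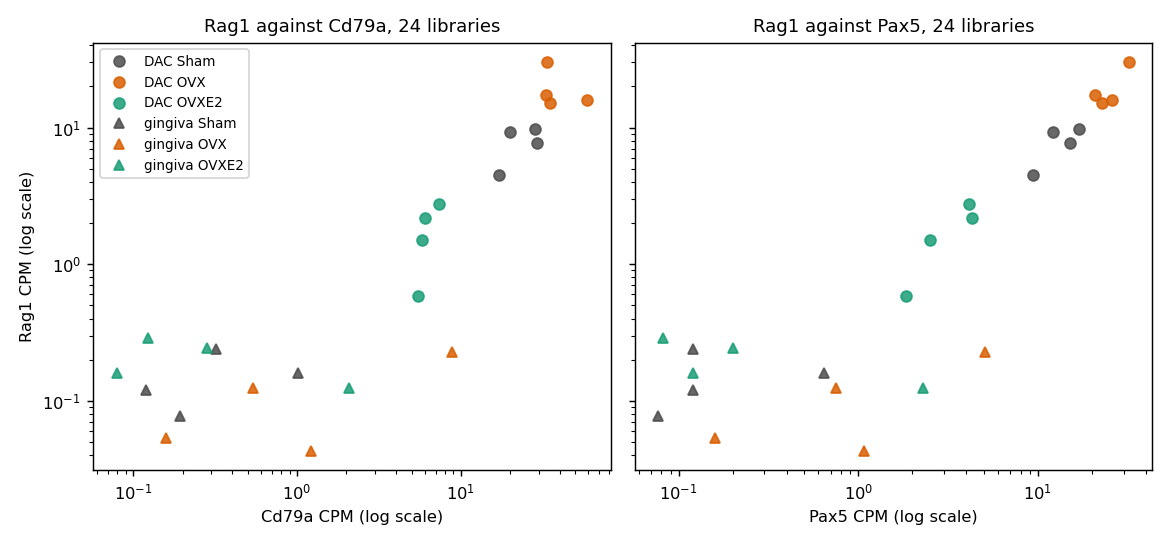
Rag1 against Cd79a (left) and Pax5 (right) in the 24 libraries, in CPM on log axes, scaled within each tissue; circles are DAC and triangles gingival libraries, coloured by group. Gingival OVX 3 reaches 8.77 CPM of Cd79a with Rag1 below 0.3 CPM, while all DAC libraries lie at 0.585 CPM of Rag1 or above.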

How the data were processed

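Per the submitters' processing notes, fastp, STAR and DESeq2 were used with GRCm38 (mm10); their versions and the gene annotation were not given in those notes. The deposited tables hold raw counts per gene ID in 3 columns, for either strand and each strand. The column that held most reads was used, and counts of either strand were an alternative. GENCODE M21 named 38186 of 38321 IDs. List genes absent from the tables are not analysed here. The values of 1 list gene are not reported here.

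The 12 libraries of a tissue entered 1 edgeR 4.0.16 fit in R 4.3.3 (filterByExpr, TMM, glmQLFit with robust estimation, glmQLFTest), with 9 residual degrees of freedom. All 24 entered the tissue comparisons (18 degrees of freedom). P-values were Benjamini-Hochberg adjusted over all genes tested and called under 0.05. Single values used exact permutation tests (scipy 1.17.1). Log2 CPM used a prior count of 2. In counts simulated for OVXE2 against OVX in the DAC (13433 genes), 49.1% of 2-fold and 82.2% of 4-fold changes were recovered.

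The members, lists and tests were chosen with earlier results of these data known. Named were Rag1 and Rag2, genes within 250 kb, list members past the test (up to 8 by p) with up to 3 others, and the 8 genes most like the pair. A few further values were added after seeing the data. Alternatives were DESeq2 1.42.0, DESeq2 size factors, no filter, either-strand counts, the 2 groups alone, a replicate block, another ratio pseudocount, leaving out each library and, added later, 3 sets of DAC libraries.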

Additional observations from a re-analysis of the deposited data

Results flagged for a closer look

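Rag1 in the DAC libraries of OVX was led by 1 library, OVX 1, at 30.1 CPM, and the gap to the next library was 0.849 of the group's range, above Dixon's critical value for 4 samples. The count ratio of Rag1 to Rag2 in the same group was also highest in OVX 1, at 8.47, with a gap of 0.968 of the range. Of 12 groups of values tested in this way 2 were flagged, both in the same library, and chance flags about 1 in 20. Rag2 in OVX 1, at 3.55 CPM, was close to the other 3 OVX libraries. OVX 1 also had 13.9% of its counts in gland genes and a low antisense share, and the part of either in its Rag1 level was not tested.

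The difference between OVXE2 and OVX in Rag1 was -4.28 on the log2 scale in the DAC minus gingiva, by edgeR's contrast (adjusted p = 0.0150). Gingival Rag1 rests on 1 to 7 counts per library, and the gene passed the filter on low counts only through the DAC. The value is therefore a description, and its p is not read as support for a tissue difference.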

How the results depend on the processing

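Between OVXE2 and OVX in the DAC, Rag1 and Rag2 kept their calls in all 21 alternatives. The count of genes called there, 290, was 598 with DESeq2, 189 with the 2 groups alone, 39 in the 8 DAC libraries with the higher antisense share, 122 without the 4 libraries richest in neuron counts, and 176 to 290 leaving out each library. Against Sham, 143 genes became 340, 64, 16 and 37 in that order, and 61 to 164. Rag1 against Sham lost its call at -2.17 with the replicate block, -2.16 with the 2 groups alone, -2.64 in those 8 libraries, -2.05 without OVX 1 and Sham 2, -2.42 without the neuron-rich libraries, and in 8 of 12 fits leaving out a library (-2.45 to -1.87 over all 12). Rag2 against Sham was -2.60 in those 8 libraries, where its call was lost. For OVX against Sham DESeq2 called 10 genes. In gingiva, DESeq2 called 91, 44 and 8 genes for OVXE2 against OVX, OVX against Sham and OVXE2 against Sham. For the first, 2 were called without the filter, 2 with the replicate block and 0 to 60 leaving out each library, the 60 without OVX 3. The difference between tissues called 114 genes with DESeq2 and 15 to 33 leaving out each library, and its Rag1 value was -4.84 to -3.98. The log2 ratio of Rag1 to Rag2 between OVXE2 and OVX was -0.0095 with a pseudocount of 1 and -0.43 to 0.41 leaving out each library, and between OVXE2 and Sham -0.021 (without OVXE2 4) to 0.83. The causes of these changes were not tested.

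Replicate numbers are shared across groups, and the labels do not say that they pair libraries, so no pairing was assumed. Of 12 same-numbered correlations of deviations in the DAC, from -0.348 to 0.348, 5 exceeded 0.1. Their median was 0.005, against -0.015 for libraries of different number. Over both tissues 19 of 60 exceeded 0.1, with medians of 0.003 and -0.020. These values do not settle whether libraries of both tissues came from the same mice. With the replicate block Rag1 and Rag2 differed by -3.47 and -3.71 between OVXE2 and OVX, both called, and the block changed no other Rag call than the one above. Depth limits Rag2 in OVXE2 (4 to 11 counts) and both genes in gingiva.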
